A study of Mus musculus with 2 samples.

Results

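The genes described here encode chromatin remodellers other than Brg1 itself: subunits of the BAF and PBAF complexes, the CHD family, the ISWI ATPases, ATPases of the INO80 class, and the related ATPases Atrx and Hells. They were taken by name from a list of 35 genes. Of these, 34 had a record in both libraries and 33 were expressed, among 23746 records in all, of which 13279 were expressed. A record was called expressed at 1 FPKM or more in at least 1 library. FPKM divides a gene's fragment number by its transcript length and by the size of the library, so it can be compared between genes of different length. Expression of Srcap, 1 of 4 listed genes of the INO80 class, is not analysed here, and only its promoter enters below. Chd5 was the member under 1 FPKM in both libraries.

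RNA was sequenced from 2 mouse medulloblastomas, tumours of the cerebellum, with 1 library per genotype. Both animals carried CAG-CreER, a tamoxifen-inducible Cre recombinase under a broadly active promoter, and Rosa26-SmoM2, an activated Smoothened that switches on Hedgehog signalling, and both had 10 tamoxifen injections. The wild-type tumour was Brg1+/+ and the knockout tumour was Brg1F/F, with Brg1 alleles that Cre deletes. Neither transgene limits recombination to tumour cells, and the tissue was dissected, so the samples can hold other cells. The comparison asks how gene expression in this tumour differs after loss of Brg1, the BAF ATPase encoded by Smarca4. With 1 library per genotype no difference has a replicate check, an error or a p-value, and "higher" and "lower" compare these 2 libraries only.

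BAF complexes use ATP to slide or eject nucleosomes and open enhancers and promoters. Their ATPase, Brg1 or Brm, sits on a shared core, and exchangeable subunits sort the complexes into canonical BAF, PBAF and a noncanonical form. CHD and ISWI proteins space nucleosomes or close chromatin, and some INO80 class enzymes exchange histone variants. In the developing cerebellum several of these enzymes are needed for granule neuron precursors to divide or mature, and many family members replace each other as neurons differentiate.

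The targeted gene Smarca4 had 14.0 FPKM with wild-type Brg1 and 3.76 FPKM in the knockout library, a log2 ratio of -1.66, or -1.67 from the midpoints explained below. This value covers the whole gene, so it does not say how many cells carry the deletion. Cell type markers differed widely between the libraries. FPKM summed to 388032 in the wild-type and 343028 in the knockout library, and read depth is unknown because the files hold no counts. All 12 markers of dividing cells were lower in the knockout library by 2-fold or more, and their summed level was 1045 FPKM in the wild type against 309.1 FPKM in the knockout. Of 9 markers of the Hedgehog tumour and its granule precursors, 8 were lower, and their sum was 658.5 and 137.0 FPKM. These markers were present in both libraries, with Sfrp1 at 178 and 39.1 FPKM and the cyclin gene Ccnd1 at 107.1 and 16.6 FPKM. Mature granule neuron markers (9 of 10 higher, summed 178.3 and 978.9 FPKM), Purkinje cell markers (9 of 9, 13.45 and 813.4 FPKM) and oligodendrocyte markers (8 of 8, 71.12 and 717.3 FPKM) went the other way. Snap25, a synaptic gene on the granule neuron list, had 57.6 and 376 FPKM, Calb1 of Purkinje cells had 1.33 and 149 FPKM, and Mbp of myelin had 31.1 and 351 FPKM. Markers of GABAergic interneurons (6 of 6 expressed, summed 13.96 and 407.6 FPKM), astrocytes and Bergmann glia (9 of 9, 498.0 and 2572 FPKM) and microglia and macrophages (7 of 9, 291.2 and 619.0 FPKM) were higher as well, and 1 of 6 expressed endothelial markers was (22.26 and 37.50 FPKM). Pvalb (10.9 and 294 FPKM) gave most of the interneuron sum, and Gad1 (1.80 and 77.1 FPKM) was on both the interneuron and the Purkinje list. No marker of these lists was at 0 in either library (0 in each). In bulk tissue, fewer cells of a type and less RNA per cell cannot be told apart. Xist had 268 FPKM with wild-type Brg1 and 0.369 FPKM in the knockout library, and the Y-linked gene Ddx3y had 0.00687 and 25.1 FPKM. Sex and genotype therefore cannot be told apart.

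A second feature of the files touches most members. Each FPKM comes with a lower and an upper bound, but in 57.5% of expressed records the FPKM lay outside its own bounds in at least 1 library, and this held for 24 of the 33 expressed members. Chd4, for example, was listed at 20.2 FPKM in the wild-type library with bounds of 80.6 and 83.9 FPKM. Among all expressed records with a single transcription start identifier the share was 63.4%, against 8.16% of those with several. The members with several start identifiers, Smarcd2, Bcl11a and Smarcad1, had FPKM inside their bounds in both libraries. How the bounds were made is not given in the sources used here. Each log2 ratio of a member below is therefore given from FPKM and again from the midpoint between the bounds.

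Of the 33 expressed members, 6 differed between the libraries by 2-fold or more, 3 of them higher in the knockout and 3 lower. The higher members were Smarcd3, Chd3 and Smarca1, and the lower members were Bcl11a, Bcl11b and Hells. The call used log2((knockout FPKM + 1)/(wild-type FPKM + 1)), past 1 or -1, which shrinks the ratios of low genes. Among all expressed records 16.1% were higher and 8.67% were lower by this rule. The members' 3 of 33 in the lower direction was near that background, and their 3 of 33 in the higher direction was below it. The median log2 ratio was -0.22 over the members and 0.09 over all expressed records, and 20 members lay below 0, as did 45.2% of all expressed records. From bound midpoints 1 member was higher, Smarcd3, and the same 3 genes, Bcl11a, Bcl11b and Hells, were lower, against 15.6% and 8.74% of all records. By both measures together 1 member was higher and 3 were lower, against 14.9% and 7.68%. The measures gave opposite signs for 2 members, Smarce1 and Chd8, and for 5.37% of all expressed records.

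**Figure D1:**
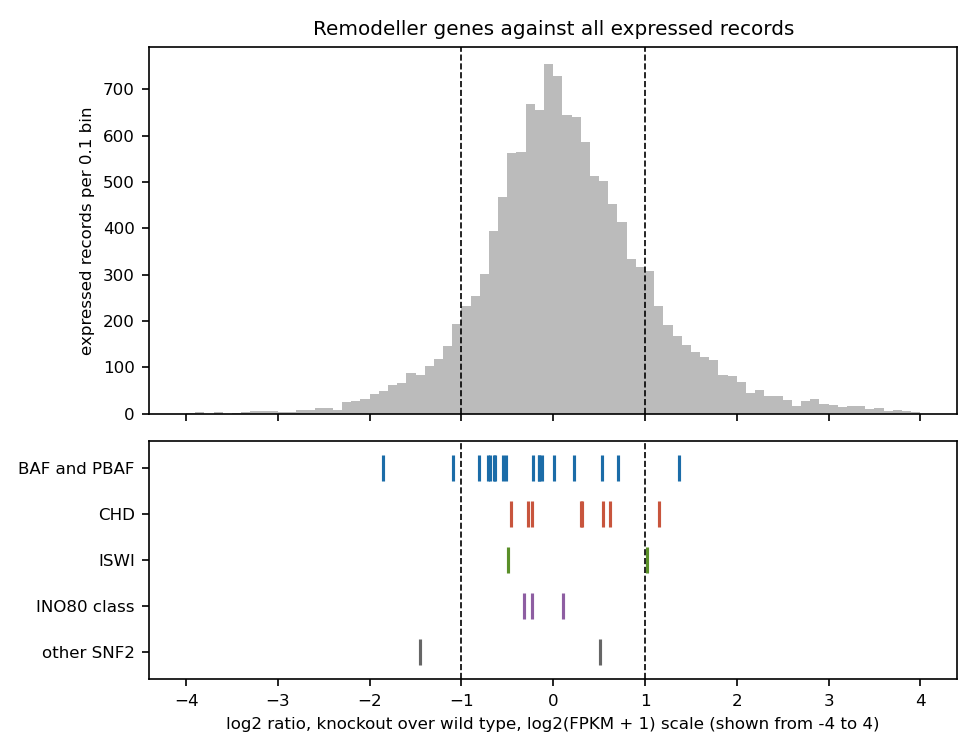
Upper panel: number of expressed records per 0.1 bin of the log2 ratio (knockout over wild type, from log2(FPKM + 1)). Lower panel: 1 tick per expressed member, in a row for each class, with dashed lines at the 2-fold limits. Of 33 members, 27 lie between the dashed lines, and the ticks past them are Bcl11a, Hells and Bcl11b on the left and Smarca1, Chd3 and Smarcd3 on the right.

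The bounds of the 2 libraries did not overlap for 29 of the 33 members, with the knockout above for 8 and below for 21. Over all expressed records the knockout bounds lay above for 41.6% and below for 36.1%. The members with overlapping bounds were Bcl7b, Chd8, Ino80 and Atrx. The bounds are narrow and separate most of the transcriptome, so their separation alone does not single out a member.

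Among the BAF and PBAF subunits, 13 of 18 had a log2 ratio below 0, against 45.2% of all expressed records, with a median of -0.37. From bound midpoints the median was -0.50. The core subunit Smarcb1, the gene mutated in human rhabdoid tumours, had 38.7 FPKM with wild-type Brg1 and 24.5 FPKM in the knockout library. Its log2 ratio was -0.64 from FPKM and -0.63 from midpoints. Smarce1, a core subunit with a DNA-binding HMG domain, had 28.0 and 28.1 FPKM, but its bounds ran from 81.6 to 87.4 FPKM in the wild type and from 69.5 to 74.2 FPKM in the knockout. Its log2 ratio was 0.00 by FPKM and -0.23 by midpoints, so no direction can be given.

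The scaffold paralogues Smarcc1 (BAF155) and Smarcc2 (BAF170), which pair at the base of the complex, lay on opposite sides of 0. Smarcc1 had 14.4 FPKM with wild-type Brg1 and 9.78 FPKM in the knockout library, a log2 ratio of -0.51, or -0.87 from midpoints. Smarcc2 had 17.8 and 29.6 FPKM, a log2 ratio of 0.71 by both measures. Neither reached 2-fold alone. The ratio of Smarcc1 to Smarcc2 within a library, which no scaling between libraries can alter, was 0.809 in the wild type and 0.330 in the knockout. From midpoints it was 1.79 and 0.569.

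The BAF60 paralogues Smarcd1, Smarcd2 and Smarcd3, which link the complex to transcription factors, also diverged. Smarcd1 was the most abundant member by FPKM in the wild-type library, with 45.1 FPKM, and had 30.6 FPKM in the knockout (log2 ratio -0.54, or -0.47 from midpoints). From midpoints the most abundant member there was Smarce1. Smarcd2 had 15.6 and 23.0 FPKM (log2 ratio 0.53 by both measures). Smarcd3 (BAF60c), the subunit linked to heart, muscle and neuronal genes, had 2.88 and 9.07 FPKM, which is 3.15-fold higher in the knockout library (log2 ratio 1.38, or 1.53 from midpoints). Markers of mature granule neurons (9 of 10), Purkinje cells (9 of 9), astrocytes and Bergmann glia (9 of 9) and oligodendrocytes (8 of 8) were higher there too. The part of any of these cell types in the Smarcd3 value was not tested. The sum of the 3 genes was 63.5 FPKM in the wild type against 62.7 FPKM in the knockout, so the make-up of the set differed more than its total. From midpoints the sum was 67.4 and 75.2 FPKM.

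None of the 6 subunits that define the type of complex reached 2-fold by either measure (0 genes). Arid1a, the DNA-binding subunit of canonical BAF and a frequent tumour suppressor, had 20.6 and 12.4 FPKM, a log2 ratio of -0.69, or -0.66 from midpoints. Its alternative Arid1b had 7.50 and 6.28 FPKM (-0.22, or -0.32 from midpoints). The PBAF subunits Arid2 (20.7 and 18.8 FPKM, log2 ratio -0.13 by both measures) and Pbrm1 (13.9 and 12.4 FPKM, -0.15, or -0.52 from midpoints) differed little by FPKM, and both ratios changed sign once the libraries were given equal FPKM sums. Brd7, the bromodomain subunit of PBAF, had 18.5 and 11.5 FPKM (log2 ratio -0.64, or -0.92 from midpoints). Brd9, the bromodomain subunit of noncanonical BAF, had 10.0 and 8.90 FPKM (-0.15, or -0.45 from midpoints), and its ratio also changed sign with equal sums.

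The BCL7 subunits again differed within the set. Bcl7a, mutated in B-cell lymphomas, had 37.9 and 21.2 FPKM (log2 ratio -0.81, or -0.82 from midpoints). Bcl7c had 5.59 and 3.03 FPKM (log2 ratio -0.71 by both measures). Bcl7b was on the other side of 0, with 8.58 and 10.3 FPKM (log2 ratio 0.23, or 0.21 from midpoints), and its bounds overlapped between the libraries.

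The BCL11 genes had the lowest relative levels of all members in the knockout library. Bcl11a, a zinc-finger protein of the complex that also represses fetal globin, had 15.5 FPKM with wild-type Brg1 and 3.58 FPKM in the knockout library, or 23.0% of the wild-type level. Its log2 ratio was -1.85 by both measures. Bcl11b, its paralogue in T cells and forebrain neurons, had 1.45 and 0.146 FPKM, or 10.1% of the wild-type level. The added 1 FPKM brings that to a log2 ratio of -1.10 by both measures. Both genes had FPKM inside their bounds in both libraries. Markers of dividing cells and of the Hedgehog tumour were lower in the same library (12 of 12 and 8 of 9), and their part in the BCL11 values was not tested.

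Of 12 further BAF genes, among them Smarca4 and the exchange subunits, 2 were higher past 2-fold and 1 was lower. Among all expressed records 16.1% were higher and 8.67% lower, so these counts were near the background. The higher genes were Actl6b (6.16 and 16.4 FPKM) and Dpf3 (0.0881 and 1.65 FPKM) of the neuronal complex, and the lower gene was Smarca4. Dpf1 (4.32 and 3.63 FPKM) and Ss18l1 (10.7 and 10.4 FPKM) of the same complex lay within 2-fold by both measures. Smarca2, encoding the alternative ATPase Brm, had 10.7 and 14.1 FPKM but midpoints that gave a log2 ratio of -1.48, against 0.37 from FPKM.

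**Figure D2:**
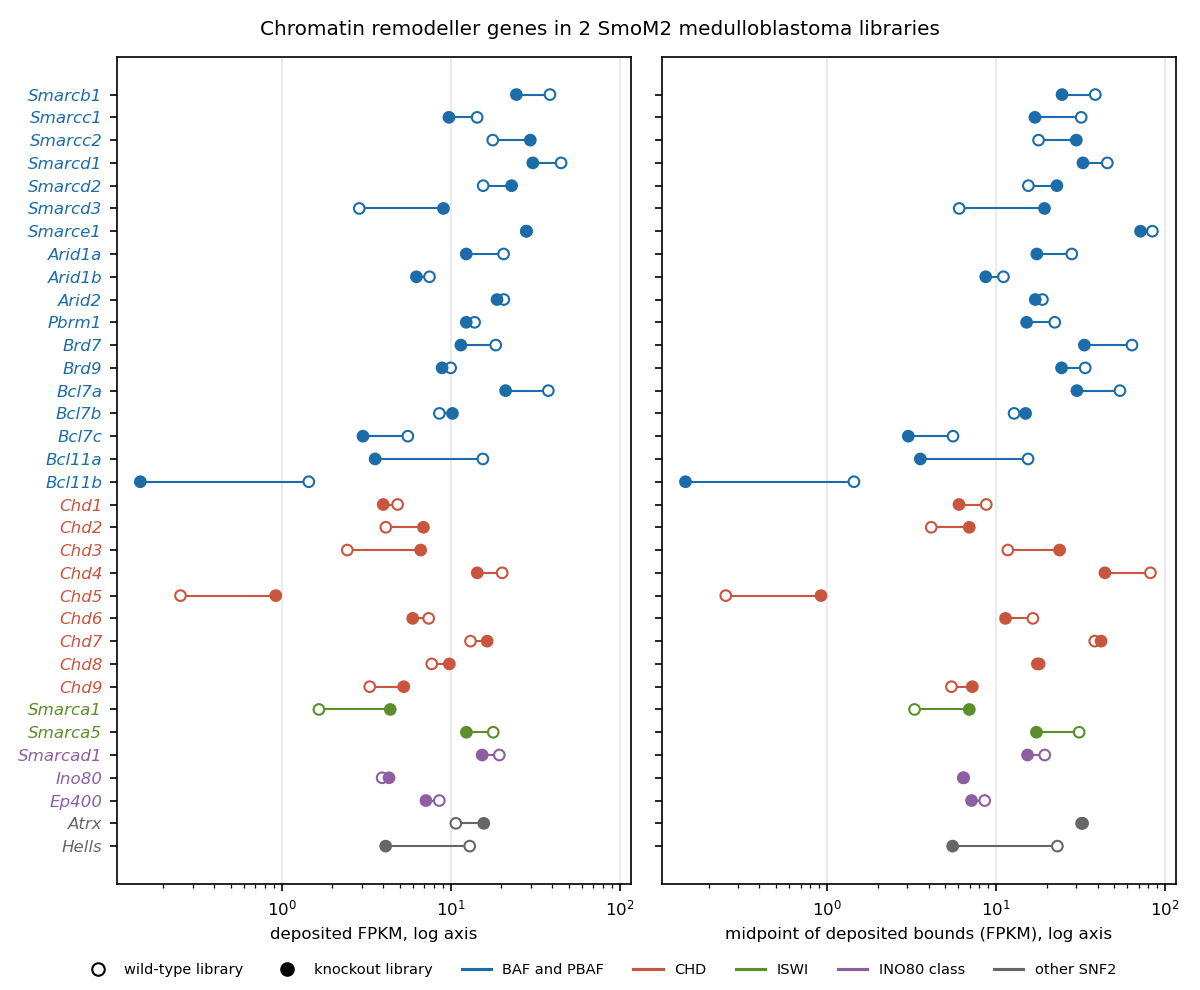
Levels of the 34 members in the wild-type library (open circles) and the knockout library (filled circles), from FPKM (left) and from the midpoint of the deposited bounds (right), both in FPKM on log axes, with a line joining the values of a gene and colours for the classes. Chd4, Smarce1 and Brd7 sit far to the right in the midpoint panel. Bcl11a, Bcl11b, Hells, Smarcd3, Chd3, Smarca1 and the low gene Chd5 have long lines in both.

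By FPKM 3 of 8 expressed CHD genes were below 0, near the 45.2% of all expressed records, and their median log2 ratio was 0.31. From midpoints the median was 0.04. In the first subfamily Chd1, which binds trimethylated histone H3 at active genes, had 4.86 and 3.99 FPKM (log2 ratio -0.23, or -0.47 from midpoints). Chd2, a gene of childhood epilepsy, had 4.14 and 6.91 FPKM (log2 ratio 0.62, or 0.63 from midpoints). The ratio of Chd1 to Chd2 was 1.17 in the wild type and 0.578 in the knockout.

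The NuRD ATPases of the second subfamily showed the widest split among the CHD genes. Chd3 had 2.45 FPKM with wild-type Brg1 and 6.65 FPKM in the knockout library, 2.72-fold higher. Its log2 ratio was 1.15 from FPKM and 0.96 from midpoints, so the call was lost by midpoints. Chd4, the most abundant of the 3, had 20.2 and 14.4 FPKM (log2 ratio -0.46), and -0.88 from midpoints. Chd5, a neuronal member, had 0.252 and 0.924 FPKM, 3.66-fold higher but under 1 FPKM in both libraries. The ratio of Chd3 to Chd4 was 0.121 in the wild type and 0.463 in the knockout, which is 3.82 times the wild-type ratio, or 3.77 times from midpoints. Markers of mature granule neurons (9 of 10), Purkinje cells (9 of 9), astrocytes and Bergmann glia (9 of 9) and oligodendrocytes (8 of 8) were higher in the same library. The part of any of these cell types in the Chd3 value was not tested.

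In the third subfamily Chd7, mutated in CHARGE syndrome and required in granule neuron precursors, had 13.1 and 16.5 FPKM (log2 ratio 0.31, or 0.12 from midpoints). Chd8, an autism risk gene, had 7.73 and 9.83 FPKM, with a log2 ratio of 0.31 that became -0.03 from midpoints. Chd9 had 3.32 and 5.28 FPKM (0.54, or 0.35 from midpoints). Chd6 was the lower gene of the subfamily, with 7.42 and 5.97 FPKM (-0.27, or -0.50 from midpoints). None of these reached 2-fold by either measure (0 of 4 genes). Chd7 was the most abundant of them in both libraries.

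The ISWI ATPases differed in direction. Smarca5 (SNF2H), the form used by dividing cells, had 17.9 FPKM with wild-type Brg1 and 12.4 FPKM in the knockout library, with a log2 ratio of -0.49, or -0.80 from midpoints. Smarca1 (SNF2L), the form enriched in mature neurons, had 1.66 and 4.40 FPKM, 2.64-fold higher. Its log2 ratio of 1.02 was just past the limit, and it was inside the limit at 0.89 from midpoints and also after division by the upper quartile or centring on the median. The ratio of Smarca1 to Smarca5 was 0.0930 and 0.354, a 3.81-fold difference, and 3.78-fold from midpoints. Smarca1 and Atrx are on the X chromosome, where 446 expressed records had a median log2 ratio of 0.18. Markers of mature granule neurons (9 of 10), Purkinje cells (9 of 9), astrocytes and Bergmann glia (9 of 9) and oligodendrocytes (8 of 8) were higher in the same library. The part of any of these cell types in the Smarca1 value was not tested.

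The INO80 class differed little. Ino80 had 3.93 and 4.32 FPKM (log2 ratio 0.11, or 0.01 from midpoints). Ep400, the ATPase of the TIP60 complex, had 8.58 and 7.15 FPKM (-0.23 by both measures). Smarcad1, which keeps heterochromatin silent through replication, had 19.4 and 15.4 FPKM (-0.32 by both measures). None of the 3 measured genes reached 2-fold (0 genes).

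Atrx, which deposits histone H3.3 in heterochromatin with Daxx, had 10.7 and 15.7 FPKM. Its log2 ratio was 0.51 from FPKM and 0.02 from midpoints, and its bounds overlapped.

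Hells (LSH), a remodeller needed for DNA methylation at repeats and abundant in dividing cells, had 13.0 FPKM with wild-type Brg1 and 4.13 FPKM in the knockout library, or 31.8% of the wild-type level. Its log2 ratio was -1.45 from FPKM and -1.88 from midpoints, the lowest of all members by the second measure. The 12 markers of dividing cells had a median log2 ratio of -1.76, and their part in the Hells value was not tested. Among them the replication clamp gene Pcna had 321 and 121 FPKM and the cyclin gene Ccna2 had 138 and 28.4 FPKM. Of the 8 partners of Atrx and Hells, 3 were past 2-fold, all lower, against 8.67% lower and 16.1% higher among all expressed records. Cdca7, which recruits Hells to nucleosomes, had 16.7 and 2.21 FPKM (log2 ratio -2.47), Cdca7l had 10.0 and 1.73 FPKM, and Uhrf1, the reader that guides maintenance methylation, had 46.9 and 8.46 FPKM.

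**Figure D3:**
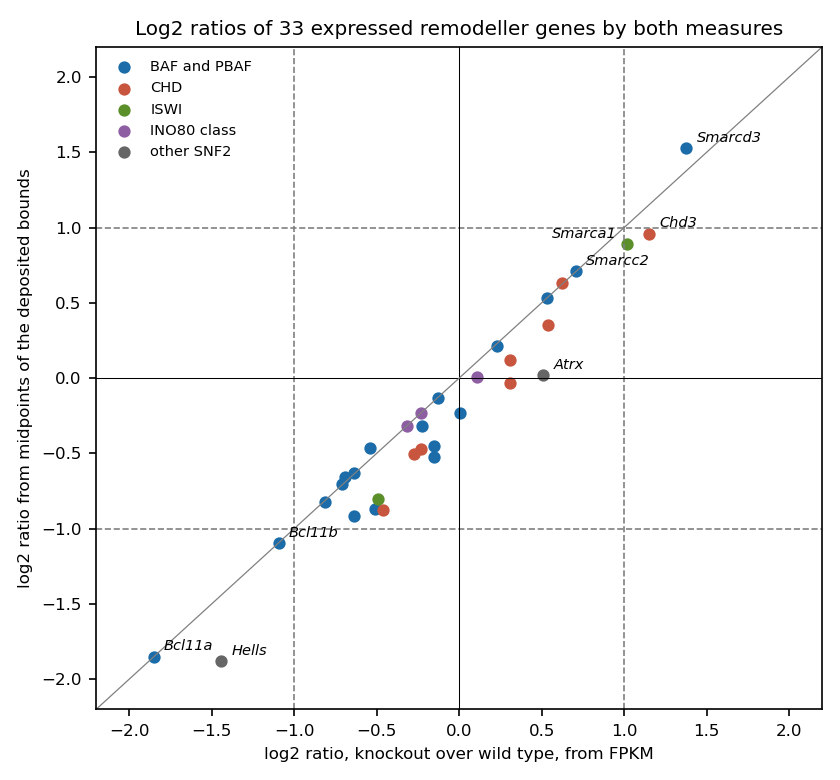
Log2 ratio (knockout over wild type) of the 33 expressed members from FPKM on the x axis and from the midpoints of the deposited bounds on the y axis, coloured by class, with dashed lines at 2-fold and a diagonal of equality. Hells, Bcl11a and Bcl11b lie past 2-fold on both axes to the lower left and Smarcd3 to the upper right, while Chd3 and Smarca1 pass it on the x axis only.

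Sets of paralogues were then compared within each library, since a share of a set does not depend on how the libraries are scaled. In the BAF155 and BAF170 set, Smarcc2 made up 55.3% of the summed FPKM in the wild type and 75.2% in the knockout. In the BAF60 set, Smarcd1 made up 70.9% and 48.9%, Smarcd2 24.5% and 36.6%, and Smarcd3 4.54% and 14.5%. In the ISWI set, Smarca1 made up 8.51% and 26.2%. In the second CHD subfamily, Chd4 made up 88.2% and 65.5%, Chd3 10.7% and 30.3%, and Chd5 1.10% and 4.21%. Chd2 made up 46.0% and 63.4% of its set. From midpoints the same genes had the larger share in the knockout library, 63.7% against 35.9% for Smarcc2, 25.8% against 9.02% for Smarcd3, 28.6% against 9.60% for Smarca1, 34.6% against 12.5% for Chd3 and 53.5% against 32.1% for Chd2.

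In the remaining sets, Arid1a made up 73.3% and 66.3% of the ARID1 set, Brd7 made up 64.9% and 56.4% of the bromodomain pair, and Chd7 made up 41.5% and 43.8% of the third CHD subfamily. Bcl7b made up 16.5% and 29.8% of the BCL7 set. Bcl11a made up 91.5% and 96.1% of the BCL11 set, whose sum was 17.0 and 3.72 FPKM. In 11 of the 21 pairs within sets the ratio differed at least 2-fold between the libraries, by FPKM and also by midpoints. Over all pairs of expressed records with values above 0 the share was 51.4% by FPKM and 51.3% by midpoints, so the count for the pairs was near the background. The bases differ slightly, since the 21 pairs include those of Chd3 and Chd4 with Chd5, which was not called expressed. The pair of Chd4 and Chd5 is among the 11.

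**Figure D4:**
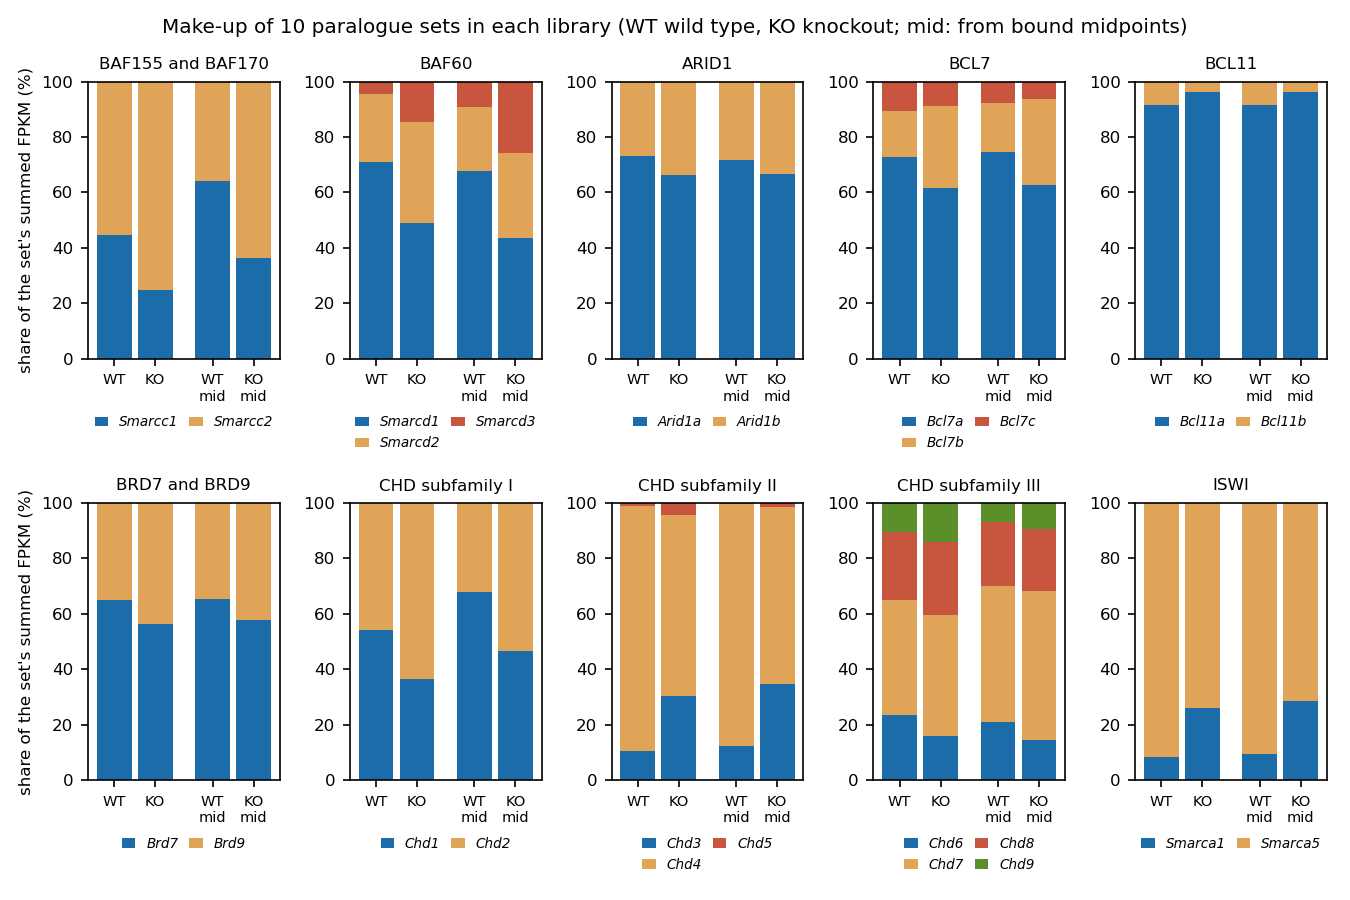
Share of each gene in the summed level of its paralogue set (percent, 0 to 100) in the wild-type (WT) and knockout (KO) library, from FPKM (left pair of bars) and from bound midpoints (right pair, mid). Smarcc2, Smarcd3, Chd2, Chd3 and Smarca1 take a larger part of their sets in the knockout bars of both pairs.

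The lists outside the BAF complex, of partner genes and of further SNF2 family ATPases, held lower but no higher genes (0 of 69). Of 13 genes of the NuRD and ChAHP complexes 2 were lower and 0 higher, Cdk2ap1 (381 and 112 FPKM, log2 ratio -1.76) and Mta1 (32.8 and 15.4 FPKM, -1.05, or -0.96 from midpoints), and the list median was -0.47. From midpoints 2 were lower too, with Gatad2a (14.7 and 6.90 FPKM, -0.99, or -1.0 from midpoints) in place of Mta1, and the median was -0.72. Of 10 genes listed as ISWI partners 2 were lower, Cecr2 (12.7 and 4.08 FPKM) and Pole4 (43.6 and 17.0 FPKM), and 0 higher, with a median of 0.05 (-0.35 from midpoints). From midpoints 3 were lower, Baz1a (log2 ratio -1.19) with them. Pole4 was on this list beside Pole3 but is a subunit of DNA polymerase epsilon rather than of an ISWI complex. Of 26 INO80, SRCAP and TIP60 subunits 1 was lower, the AAA+ helicase gene Ruvbl2 (29.96 and 12.8 FPKM), and 0 higher, with a median of -0.32. The list of Atrx and Hells partners had 0 higher and a median of -0.74. Of 12 further SNF2 family ATPases 3 were lower, the recombination genes Rad54l (10.9 and 1.95 FPKM) and Rad54b (6.16 and 1.65 FPKM) and the termination factor gene Ttf2 (5.10 and 1.42 FPKM), and 0 higher, with a median of -0.28. From midpoints 5 of these ATPases were lower, with Zranb3 at -1.16 and Ercc6l at -1.37 added. Over the lists outside BAF together, 11 of 69 genes were lower by FPKM and 14 from midpoints. These counts stand beside 16.1% higher and 8.67% lower over all expressed records (15.6% and 8.74% from midpoints), and the markers of dividing cells were lower in the same library (12 of 12), a relation that was not tested.

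Promoters, the 250 bases before and 50 after a start site, were searched in RefSeq sequences of GRCm38.p6 for 10 short motifs on both strands. Of 35 listed genes 28 had an entry. The median member promoter held 31 CG dinucleotides, against 7 in the median and 20 at the upper quartile of all promoter entries. All entries include genes that were not expressed, and no CG value for expressed genes alone is given here. The E2F letters TTTCCCGC were found in 1.07% of all 32851 promoter entries, and in 4 of the 28 members with an entry, Hells, Smarcd1, Arid1a and Brd7. The share over all entries includes genes that were not expressed, so its base is unlike that of the members. Of the 9425 expressed records with any promoter entry 218 held these letters. The log2 ratios of these 4 genes were -1.45, -0.54, -0.69 and -0.64, all below 0, as were those of 45.2% of expressed records. Of 218 expressed records with these letters 17.9% were lower and 5.96% higher past 2-fold, against 8.07% and 15.7% of the 9425 with any promoter entry. The low higher share was not particular to these letters. It was also low among records with the ETS (2.99%), YY1 (2.50%) and NRF1 (3.74%) motifs. The lower share was 21.1% with a second E2F form, 14.4% with another and 15.4% of 26 records with the GLI letters. With the remaining motifs it was nearer the 8.07%: NRF1 7.01%, ETS 8.33%, YY1 5.62%, E-box 7.08%, CCAAT 9.38% and TATAAA 8.30%. The other motifs were TTTGGCGC (the second E2F form, in 0.514% of entries and 0 members), TTCCCGCC (the other E2F form, 2.19%, Arid1a, overlapping the match above), the GLI letters GACCACCCA (0.253%, 0 members), the E-box CACGTG (7.15%, 3 members), the NRF1 motif (0.971%, 0 members), the ETS letters CCGGAAGT (3.89%, 0 members), the YY1 motif (0.633%, Smarcd1), CCAAT (37.4%, 8 members) and TATAAA (13.6%, 2 members). Some entries lie far from the start of the measured record. In genome coordinates the offset is 20188 bases for Chd8, 2639 for Bcl11a and -5340 for Smarcd2. Chd8 and Bcl11a are among the CCAAT members, and Smarcd2 is among the TATAAA members. The motifs were picked with these values known, and a match is a description of the letters, not of binding. The 30 bases around each match are printed 5′ to 3′ on the strand of the gene because these are the members that share the letters, which are in capitals. They lie at chr19:38930917-38930946 (plus strand), chr15:99702145-99702174 (plus strand), chr4:133754022-133754051 (minus strand) and chr8:88362182-88362211 (minus strand).
Hells: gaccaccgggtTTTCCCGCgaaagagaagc
Smarcd1: gtcagcacgccTTTCCCGCtagtcgccccc
Arid1a: tccctccctccTTTCCCGCcccctccccct
Brd7: ggcggcctctcTTTCCCGCtggtttgccgg

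The matches began 62, 131, 55 and 28 bases before the RefSeq start site, in the order above. All 30 bases of the Hells and Smarcd1 sites and 13 bases of the Brd7 site lie in a UTR annotated in GENCODE M21, and 0 bases of the Arid1a site do. The start site used for Hells and Smarcd1 is the start of the record in the files, while those of Arid1a and Brd7 differ from it by 374 and 19 bases. Smarcd3, the BAF60 paralogue that was higher in the knockout library, has no such letters in its window. Most members lack them, since 4 of 28 with an entry had them. Bcl11a and Bcl11b, which were lower in the knockout library, are also without them. A stretch of 100 bases before its start site without annotated UTR is shown for comparison with Smarcd1 (chr5:24602013-24602112, minus strand). It holds 17 CG dinucleotides, and the whole window of 300 bases holds 40, against 35 for Smarcd1.
Smarcd3: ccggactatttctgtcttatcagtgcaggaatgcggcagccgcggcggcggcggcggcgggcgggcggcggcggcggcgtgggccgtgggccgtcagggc

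The genes past 2-fold lay on separate chromosomes apart from Bcl11a and Chd3. On mm10, counted from 1, Bcl11a spans 24078056 to 24173558 on chromosome 11, and Chd3 spans 69344351 to 69369391 on the same chromosome. Bcl11b spans 107910403 to 108003414 on chromosome 12, Hells 38930990 to 38968277 on chromosome 19, Smarcd3 24592622 to 24602002 on chromosome 5 and Smarca1 47809370 to 47892552 on chromosome X.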

How the data were processed

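Per the file headers, the authors deposited FPKM per gene with a lower and an upper bound and a status. Cuffdiff 2.1.1 and mm10 come from the submitters' processing notes, which give neither a role. The aligner, annotation and filters were not given in the sources used here, nor was the making of the bounds. Start positions in the files count from 0: after adding 1, 12 of 34 members matched the GENCODE M21 start, against 1 as written. Depth is unknown, since no counts are given. Records of both libraries were joined by symbol, locus and start identifiers. The members and lists were chosen with earlier results of these data known. All members are named, as are Smarca4 and Smarca2. So are genes past 2-fold on the partner and ATPase lists (up to 4 per list). Some of the 2 most abundant markers of each list are named too. Baz1a, Zranb3, Ercc6l, Dpf1, Ss18l1, Gatad2a, Xist and Ddx3y were chosen after their values were seen. No test was possible with 1 library per genotype, and a 2-fold rule on log2(FPKM + 1) took its place. RefSeq proteins were not used here. Alternatives changed the pseudocount, scaling, filter, measure and fold. Tables were made with pandas 2.3.3 and numpy 2.4.6 in Python 3.11.15, and plots with matplotlib 3.10.9.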

Additional observations from a re-analysis of the deposited data

How the results depend on the processing

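No paired analysis was possible because each genotype has 1 library. The count of 3 members higher became 5 under a 1.5-fold rule, 0 under a 4-fold rule, and 2 with upper quartiles or with centring on the median. It became 1 where the mean of both libraries had to reach 5 FPKM, and 1 from bound midpoints. Among records with FPKM inside their bounds (added after seeing the data) it was 0. The count of 3 lower became 8 under 1.5-fold, 0 under 4-fold, 2 above 5 FPKM and 2 inside bounds. Bounds were separate for 29 of 33 members, and for 9 of the 9 left among records inside their bounds. The median over all members (-0.22) was -0.25 and -0.24 with pseudocounts of 0.1 and 0.5 FPKM, -0.07 with equal sums, -0.26 with upper quartiles, -0.31 centred on the median, -0.19 with no filter, -0.23 above 5 FPKM, -0.32 from midpoints and -0.32 inside bounds. The BAF and PBAF median (-0.37) was, in that order without the unfiltered case, -0.40, -0.39, -0.21, -0.40, -0.45, -0.19, -0.50 and -0.67. The CHD median (0.31) was 0.33, 0.32, 0.47, 0.27 and 0.22 for pseudocounts and scalings, 0.04 from midpoints and 0.62 inside bounds, where only Chd2 was left. Equal sums moved the median of all expressed records from 0.09 to 0.24. Of 33 members 28 kept 1 sign in every alternative that kept them, and Arid2, Brd9, Pbrm1, Chd8 and Smarce1 did not. Leaving out a replicate was not possible.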
